A study of Mus musculus with 8 samples.

Results

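The genes of the constitutive proteasome were followed in mouse bone marrow-derived dendritic cells (BMDCs), cells grown from marrow precursors with the growth factor GM-CSF and used as a model of immature dendritic cells (DCs). A gene was a member when a probe set on the array carried a single annotated symbol that begins with Psma to Psmg and a number, leaving out the immunoproteasome genes Psmb8, Psmb9 and Psmb10. The rule found 46 genes with 99 probe sets, of 18193 genes with a single symbol, and each gene was represented by the probe set with the highest mean log2 signal over the 8 arrays. The rule used names and mean signal only, and no comparison between groups. No value was read for Psme2, an activator subunit, by this rule, since its probe set carries a second symbol (Psme2b).

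The proteasome is the protease complex that degrades ubiquitin-tagged proteins in the cytosol and nucleus, and the peptides it leaves are a source of those shown on MHC class I molecules. Its core particle is a stack of rings of alpha subunits (Psma genes), which gate the entry, and beta subunits (Psmb genes), among them the catalytic Psmb5, Psmb6 and Psmb7. The regulatory particle binds ubiquitin chains and feeds substrates into the core through a ring of ATPases (Psmc genes) and a set of non-ATPase subunits (most Psmd genes). In DCs exposed to interferon or maturation signals, catalytic beta subunits can be replaced by those of the immunoproteasome.

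BMDCs came from the marrow of 6-week-old female BALB/c mice and were grown in GM-CSF over 9 days; its dose was 200 U/mL in the labels and 1000 U/mL in the study's methods. They were then exposed for 4 h or 12 h to 75 μg/mL of [BF/S+L/Ep], the butanol fraction of a stem and leaf extract of the plant Echinacea purpurea, or to its vehicle, DMSO, which was at 0.1% in all 4 groups. Each of the 4 groups had 2 arrays. The study calls them biological sample replicates, and the labels do not say whether they came from separate cultures, so p-values measure the spread between these arrays. In such bulk RNA fewer cells of a type and less RNA per cell cannot be told apart.

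The members lay on 16 chromosomes in the RefSeq gene table (GRCm38.p6), with 9 members on the chromosome that held the most. RefSeq promoter windows, from 250 bases before to 50 bases after a gene's start, were available for 38 of the 46 genes (41 windows), and Psma8, Psmb1, Psmb2, Psmb7, Psmc3, Psmd3, Psmd7 and Psmg2 had none in the table used. The last 150 bases before the start are printed here for 5 members that recur in the comparisons, 5′ to 3′ on the gene's own strand, with matches to the motifs searched in capitals.
Psmd10, chrX:140956712-140956861, strand -: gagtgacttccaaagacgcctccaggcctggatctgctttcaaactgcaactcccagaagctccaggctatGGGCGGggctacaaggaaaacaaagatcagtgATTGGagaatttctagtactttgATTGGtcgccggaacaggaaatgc
Psmd1, chr1:86064469-86064618, strand +: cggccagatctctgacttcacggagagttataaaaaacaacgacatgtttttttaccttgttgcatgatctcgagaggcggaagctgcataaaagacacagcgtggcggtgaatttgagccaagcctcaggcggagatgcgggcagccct
Psmd11, chr11:80428465-80428614, strand +: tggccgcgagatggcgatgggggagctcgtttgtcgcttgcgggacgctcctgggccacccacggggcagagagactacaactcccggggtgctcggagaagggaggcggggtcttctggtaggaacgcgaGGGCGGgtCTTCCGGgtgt
Psmc1, chr12:100110052-100110201, strand +: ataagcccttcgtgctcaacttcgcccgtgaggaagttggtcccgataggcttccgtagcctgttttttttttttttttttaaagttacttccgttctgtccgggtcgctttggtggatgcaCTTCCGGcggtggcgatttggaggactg
Psmb5, chr14:54617996-54618145, strand -: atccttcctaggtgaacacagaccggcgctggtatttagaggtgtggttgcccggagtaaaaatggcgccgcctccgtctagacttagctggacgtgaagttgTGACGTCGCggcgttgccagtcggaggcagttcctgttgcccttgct

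The 4 motifs searched on both strands of the 300-base windows were CCGGAAG (an Ets core), TGACNNNGC (the core of the antioxidant response element, to which NRF1 and NRF2 with small MAF proteins bind), CCAAT and GGGCGG (a GC box). CCGGAAG was in 41.5% of the members' windows, in 8.86% of all 32851 windows and in 19.2% of the windows of genes above background on all 8 arrays. By particle it was in the windows of 9 of 14 regulatory particle genes and of 1 of 12 core particle genes, Psma6. The windows of Psmd11 and Psmc1 above each carry it on the opposite strand, as CTTCCGG. TGACNNNGC was in 14.6% of the members' windows and in 12.4% of all windows, and its 6 member genes were Psmb5, Psmb6, Psmc6, Psmd9, Psmd12 and Psme4. CCAAT was in 36.6% of the members' windows against 37.4% of all, and GGGCGG in 53.7% against 35.7% of all and 63.6% of the windows of genes above background. Psmd10 carried GGGCGG and, on the opposite strand, CCAAT at 2 places, and the printed stretch of Psmd1 held none of the 4. CCGGAAG and the other motifs shared no bases in the printed stretches. These matches describe letters in the windows and were not tied to binding or to any change below.

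Of the 46 members, 43 were above background on all 8 arrays, where background is the 95th percentile, on each array, of the signals of 86 chemosensory receptor probe sets (olfactory, vomeronasal or taste) (signal 66.5 to 107). They were 7 alpha and 7 beta genes of the core, all 6 ATPases, all 11 non-ATPase subunits, the regulatory particle chaperones Psmd5, Psmd9 and Psmd10, the core assembly chaperones Psmg1 to Psmg4, the activators Psme1, Psme3 and Psme4, the inhibitor Psmf1, and Psme3ip1, which encodes a partner of the activator Psme3 and is no subunit. Psma8 and Psmb11, known as the core subunits of testis and thymus cortex, were at or under background on every array, with signals of 7.5 to 75.1 and 2.6 to 89.5, so no fold is given for them. Psmc3ip, which matched the rule by name but encodes a recombination cofactor, was above background on 5 arrays, with signals of 47.3 to 126.

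The MAS5 signals of all arrays were scaled by the authors to 1 trimmed mean of 500, so every value is relative to the rest of the array. Between the 2 replicates of a group, the median absolute log2 difference of the 43 members was 0.09 in DMSO at 4 h, 0.14 in [BF/S+L/Ep] at 4 h, 0.16 in DMSO at 12 h and 0.07 in [BF/S+L/Ep] at 12 h. The widest was that of Psmb2, a beta subunit of the core, at 0.70 in [BF/S+L/Ep] at 12 h. DMSO at 12 h replicate 1 stood apart from its partner: its members lay at a median of -0.20 (log2, from each gene's mean over the 8 arrays) against -0.02 on replicate 2, and it had the highest median signal of all probe sets, 103.7, of a range from 86.4. The medians and counts of signs by particle that use the DMSO arrays at 12 h are therefore also given without it. So are the members' median and count of signs over time in DMSO, and some single genes. Most other counts, and the medians of other gene lists, are given with it only. Of the 11 DC marker genes measured, 10 were above background on all arrays, with Flt3 on 6, and the mast cell, B cell and erythroid markers had none that was. All 7 macrophage markers and 3 of 7 neutrophil markers were above it on all arrays as well.

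[BF/S+L/Ep] against DMSO was the main comparison of the study. No proteasome gene passed the test at 4 h or at 12 h, and nearly all differences were small. The members' median log2 fold change was 0.04 at 4 h and -0.01 at 12 h, against -0.02 and -0.03 over all 45037 probe sets. The test was limma on log2 signals with Benjamini-Hochberg adjustment over all probe sets, which called 0 members at 4 h (0.00444% of all probe sets were called), 0 at 12 h (0.02%), 0 in the average of both times (0.107%) and 0 in the difference between the times (0.0%). At an unadjusted p under 0.05, 1 member lay above the controls and 1 below them at 4 h, where 2.49% of all probe sets lay above and 2.48% below. At 12 h these counts were 0 and 1 (2.62% and 3.34%), in the average 4 and 1 (3.2% and 3.88%), and in the difference 0 and 0 (1.69% and 1.97%). The member lower at 4 h and in the average was Psmb11, which was under background.

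For most members the spread between these arrays left a narrow interval, which does not cover the choice of scaling. The 95% interval of the fold change lay within 1.5-fold either way for 40 of the 43 members above background at 4 h and for 39 of 43 at 12 h. It lay within 2-fold for 43 of 43 at both times. At 12 h fewer members had an interval within 1.5-fold when either DMSO array was left out. Of the 9448 genes above background on all arrays, 67.4% had an interval within 1.5-fold at 4 h and 64.7% at 12 h, and 93.8% and 92.4% one within 2-fold. Those shares are not matched for brightness: 29 members are among the 2362 brightest of these genes, and the fit let the prior variance follow mean signal.

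**Figure D1:**
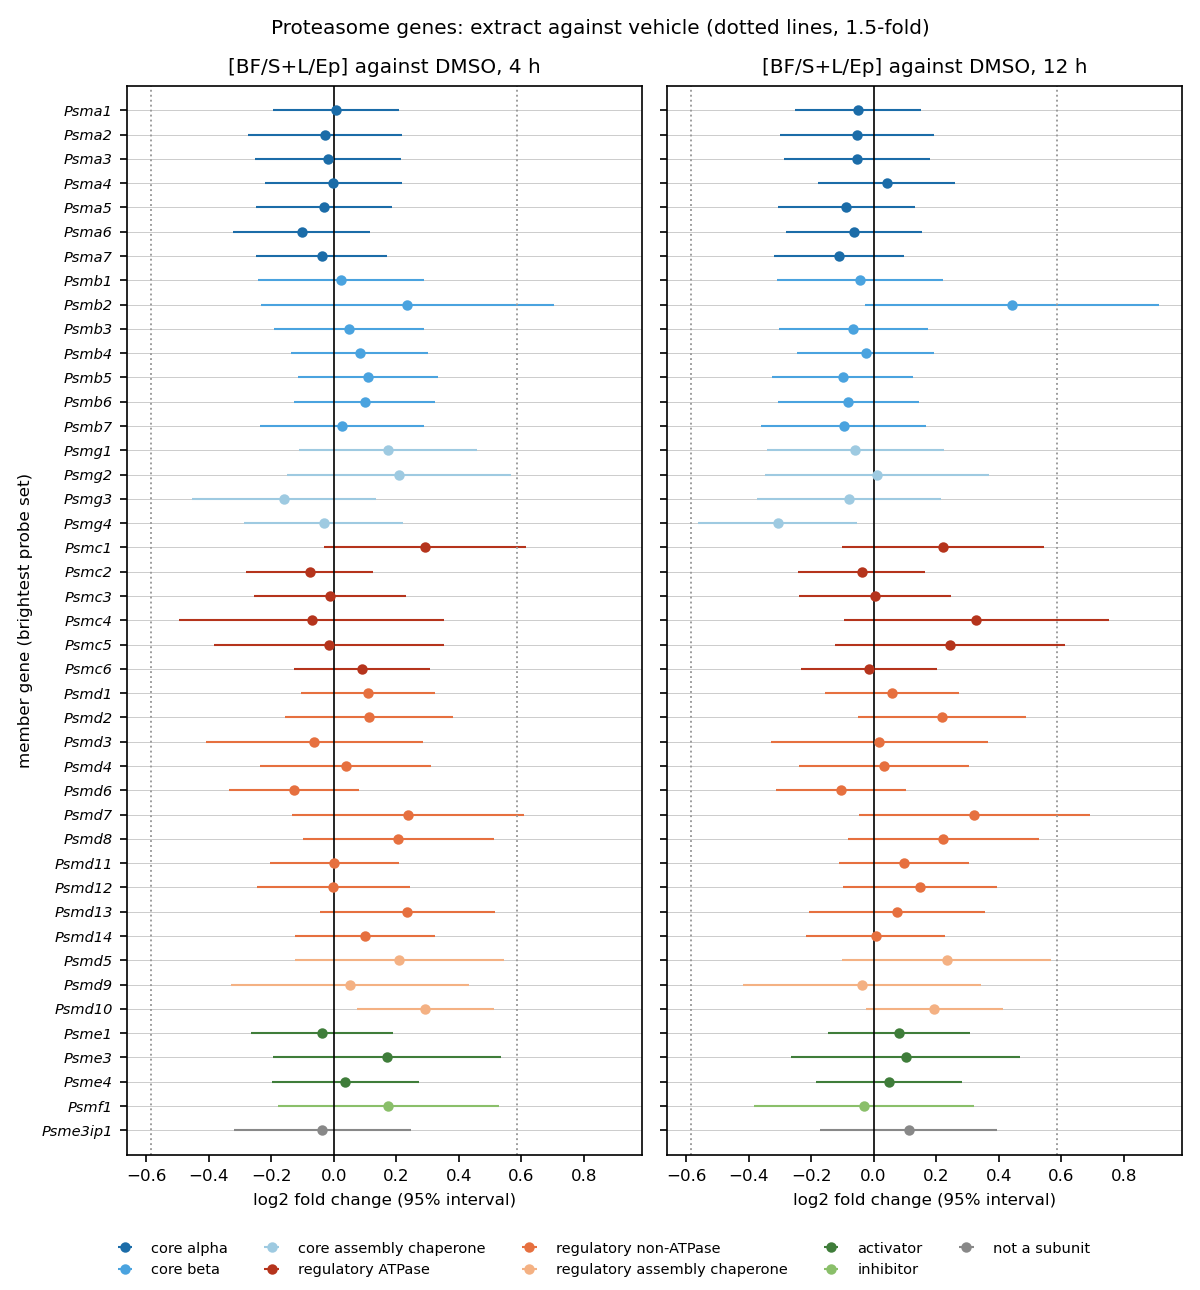
Log2 fold change of [BF/S+L/Ep] against DMSO at 4 h (left) and 12 h (right) for the 43 proteasome genes above background on all 8 arrays, 1 row a gene and coloured by particle; points are limma estimates from 2 arrays a group, bars 95% intervals and dotted lines 1.5-fold. The intervals of 40 genes at 4 h and 39 at 12 h lie inside the dotted lines, and no gene passed the adjusted test.

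By particle, the median log2 fold change at 4 h was small in both, the core (0.02 over 14 genes above background) and the regulatory particle (0.04 over 17 genes), with 6 of 14 and 7 of 17 genes under 0 against 53.2% of the 9448 genes above background. Without DMSO 4 h replicate 1 these medians were 0.00 and 0.08, with 7 of 14 and 15 of 17 genes above 0, and without DMSO 4 h replicate 2 they were 0.04 and 0.00, with 12 of 14 and 9 of 17 above 0. At 12 h, 12 of 14 core genes had a log2 fold change under 0 (median -0.06), and 14 of 17 regulatory particle genes had one above 0 (median 0.07). Of the genes above background, 54.3% were under 0 at 12 h with all arrays, and core against regulatory particle was not tested. The DMSO array that stood apart bears on this split: without DMSO 12 h replicate 1, 13 of 14 core genes were under 0 (median -0.12) and 10 of 17 regulatory particle genes above 0 (median 0.01), and without DMSO 12 h replicate 2, 7 of 14 core genes were under 0 (median 0.00) and 15 of 17 regulatory particle genes above 0 (median 0.19). With each array centred on its own median, 39 of 46 members were above 0 at 4 h and 35 of 46 at 12 h, against 28 and 23 with the signals as deposited. Of all genes above background, 61.0% were above 0 at 4 h after this centring (46.8% before it) and 61.8% at 12 h (45.7% before it). These signs rest on the brightest probe set of each gene. Of the members' 31 other probe sets above background on all arrays, 12 shared its sign at 4 h and 19 at 12 h.

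Among the core genes, Psmb5, the chymotrypsin-like catalytic subunit, gave signals of 5323 and 5525 in DMSO and 6113 and 5603 in [BF/S+L/Ep] at 4 h. Both treated arrays were above both controls, with a log2 fold change of 0.11 ± 0.10 (SE, n = 2 a group). At 12 h it gave 4635 and 5237 in DMSO and 4454 and 4752 in [BF/S+L/Ep], where the groups overlapped (-0.10 ± 0.10). The caspase-like Psmb6 (0.10 ± 0.10 at 4 h, -0.08 ± 0.10 at 12 h) and the trypsin-like Psmb7 (0.03 ± 0.12 and -0.10 ± 0.12) showed the same order of signs, and the adjusted p of these 3 genes, from limma, was over 0.94 at both times. By their brightest probe sets, all 7 beta genes were above 0 at 4 h and 6 of 7 under 0 at 12 h. The second probe set of Psmb4, nearly as bright, gave 10226 and 10757 in DMSO and 10145 and 8480 in [BF/S+L/Ep] at 4 h. At 12 h it gave 10030 and 9534, then 8798 and 7720, so its treated arrays lay below both controls at each time. The dimmer probe sets of Psmb1 gave 0.34 and -0.72 at 4 h. Of the alpha genes, 6 of 7 were under 0 at each time, and Psma6, with the smallest p of the average effect among them, gave -0.10 ± 0.10 at 4 h and -0.06 ± 0.10 at 12 h. Its brightest probe set has a suffix that marks possible cross-hybridization.

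Psmd10 encodes gankyrin, a chaperone that assembles the ATPase ring of the regulatory particle, and its promoter is the first of those printed above. Its signals were 2039 and 2095.5 in DMSO and 2568 and 2497 in [BF/S+L/Ep] at 4 h, then 2788 and 2752 in DMSO and 3039 and 3305 in [BF/S+L/Ep] at 12 h. Both treated arrays lay above both controls at each time. The log2 fold change was 0.29 ± 0.10 at 4 h (1.22-fold, limma adjusted p = 0.971) and 0.19 ± 0.10 at 12 h (1.14-fold, adjusted p = 0.870), and the average of 0.24 ± 0.07 had the smallest unadjusted p of the members, 0.00485, and an adjusted p of 0.450. Psmd1, the large scaffold subunit that receives substrates, was the other member whose treated arrays were above the controls at both times, at 0.11 ± 0.10 and 0.06 ± 0.10. In Psmd6, a lid subunit, and Psmg3, a core assembly chaperone, they were below at both times. Over all probe sets, 3.34% were higher and 4.29% lower at both times in this way, against 2 and 2 of the 46 members. In the second probe set of Psmd6, nearly as bright, treated and control arrays overlapped at both times. It gave 5834 and 5666 in DMSO and 6045 and 5745 in [BF/S+L/Ep] at 4 h. Singly, at 4 h the treated arrays lay above both controls for 12 members and below them for 6 (15.1% and 17.6% of all probe sets), and at 12 h for 8 and for 7 members (15.1% and 19.7%). At 12 h the direction with more members depended on which DMSO array was left out, and 1 control array is easier to clear than 2. Without a matching share of all probe sets, those counts are not given.

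Psmb2, Psmc1 and Psmd7 were the other members higher at an unadjusted p under 0.05 in the average. Psmb2 is a non-catalytic beta subunit, and its signals were 2057 and 1963 in DMSO and 1886 and 2968 in [BF/S+L/Ep] at 4 h, then 1433 and 1567 in DMSO and 1599 and 2594 in [BF/S+L/Ep] at 12 h. In both treated groups replicate 2 stood above the other arrays of its time, whereas replicate 1 was below both controls at 4 h and little above them at 12 h. The log2 fold change was 0.24 ± 0.22 at 4 h and 0.44 ± 0.22 at 12 h (limma adjusted p = 0.849). Psmc1, an ATPase, gave 2099 and 1809 in DMSO and 2148 and 2647 in [BF/S+L/Ep] at 4 h, then 1716 and 1969 in DMSO and 1889 and 2435 in [BF/S+L/Ep] at 12 h. Psmd7, a lid subunit that pairs with the deubiquitinase Psmd14, gave 1457 and 1247.5 in DMSO and 1404 and 1798 in [BF/S+L/Ep] at 4 h, then 1192 and 1233 in DMSO and 1269 and 1812 in [BF/S+L/Ep] at 12 h. In both genes, too, replicate 2 of each treated group was the highest array of its time. Their average log2 fold changes were 0.26 ± 0.11 for Psmc1 (adjusted p = 0.660) and 0.28 ± 0.12 for Psmd7 (adjusted p = 0.689), and the part of the replicate 2 arrays in them was not tested.

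**Figure D2:**
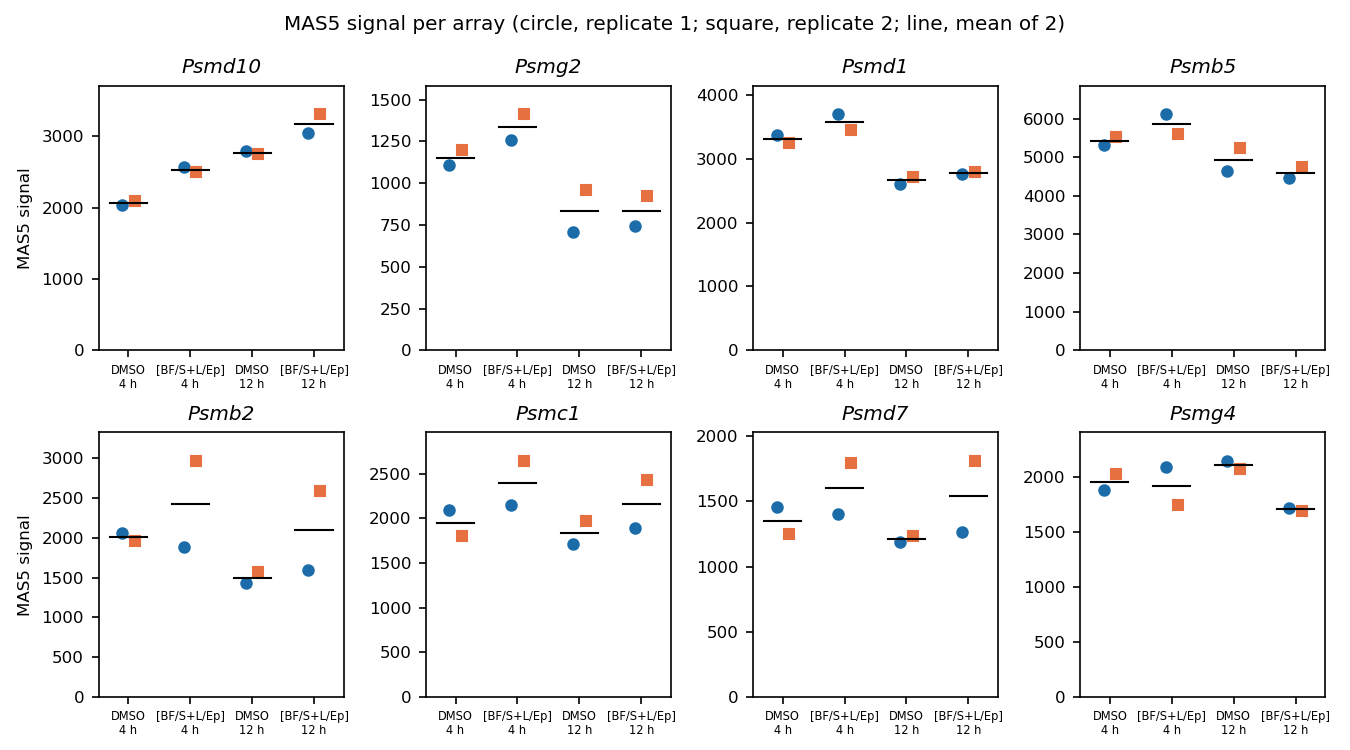
MAS5 signal (vertical axis, from 0) of 8 proteasome genes on each of the 8 arrays, by treatment and time; circles are replicate 1, squares replicate 2 and lines the mean of 2 arrays. Psmd10 goes from 2039 in DMSO at 4 h to 3305 in [BF/S+L/Ep] at 12 h, Psmg2 and Psmd1 are lower on all 12 h arrays than on any 4 h array, and Psmb2, Psmc1 and Psmd7 have their highest treated signal in replicate 2 at both times.

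Psmg4, a chaperone that works with Psmg3 in building the alpha ring, was the only member lower at an unadjusted p under 0.05 at 12 h. It gave 1886 and 2028 in DMSO and 2098 and 1746 in [BF/S+L/Ep] at 4 h, then 2151 and 2073.5 in DMSO and 1722 and 1694 in [BF/S+L/Ep] at 12 h. The groups overlapped at 4 h, and at 12 h both treated arrays lay below both controls, by 0.31 ± 0.12 on the log2 scale (limma adjusted p = 0.762). Without DMSO 12 h replicate 1 the log2 fold change of Psmg4 at 12 h was -0.28, and without replicate 2 it was -0.33. Its 4 h and 12 h effects differed by -0.27 with an adjusted p near 1, as for every member. The other genes with the smallest p at a single time were Psmd13, a lid subunit, at 0.24 ± 0.13 at 4 h, and in the difference between times Psmc4, an ATPase, which went from -0.07 ± 0.20 at 4 h to 0.33 ± 0.20 at 12 h. The replicates of Psmc4 were far apart in DMSO at 4 h (5093 and 3359), and its second probe set gave 0.06 and -0.04.

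The genes that modulate the core from outside gave small values as well. Psme1, a subunit of the interferon-inducible activator, gave -0.04 ± 0.11 at 4 h and 0.08 ± 0.11 at 12 h. Psme3, the nuclear activator, gave 0.17 ± 0.17 and 0.10 ± 0.17, and Psme4, the large single-chain activator, 0.04 ± 0.11 and 0.05 ± 0.11. The inhibitor Psmf1 gave 0.18 ± 0.16 and -0.03 ± 0.16, and its other probe sets above background on all arrays were at -0.12 and 0.32 at 4 h. Their limma adjusted p was over 0.95 at both times. The probe set shared by Psme2 and Psme2b had signals of 10421 and 10779 in DMSO and 11884 and 10154 in [BF/S+L/Ep] at 4 h, then 11800.5 and 12633 in DMSO and 12155 and 11264 in [BF/S+L/Ep] at 12 h, so that treated and control arrays overlapped at both times.

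Most members had lower signals at 12 h than at 4 h, in either treatment. Between 4 h and 12 h, 41 of 46 members had a lower mean log2 signal in DMSO (median -0.16) and 42 of 46 in [BF/S+L/Ep] (median -0.18), 2 comparisons that share no array. Among all probe sets 47.3% and 48.0% were under 0 (medians 0.03 and 0.02), and among the 9448 genes above background 54.6% and 55.5% (medians -0.03 and -0.04). Of the 43 members above background, 38 were under 0 in both comparisons, and of those genes 43.3%. Limma called 0 members in DMSO (2.1% of all probe sets were called) and 1, lower, in [BF/S+L/Ep] (2.86% were called in either direction, 1.31% as lower). At an unadjusted p under 0.05, 10 members were lower and 1 higher in DMSO (5.57% and 6.79% of all probe sets), and 14 lower and 1 higher in [BF/S+L/Ep] (6.67% and 7.17%); of the genes above background, 12.2% and 14.9% were lower.

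All arrays at 12 h lay below all arrays at 4 h for 25 members in DMSO (19.1% of all probe sets, 30.5% of genes above background) and for 28 in [BF/S+L/Ep] (20.1% and 31.3%). For 19 members this held in both treatments, against 8.09% of all probe sets, 19.3% of genes above background and 27.9% of the 2362 brightest of these, among which 29 members fall. Leaving out a DMSO 12 h array cannot lower such counts, since 1 array overlaps less often than 2. Without a matching share of all probe sets, the counts without either array are not given. The 19 were Psma1, Psma3, Psma4, Psma5, Psmb4 and Psmb5 of the core, Psmc2, Psmc3, Psmd1, Psmd6, Psmd11 and Psmd14 of the regulatory particle, the chaperones Psmd5, Psmd9, Psmg1 and Psmg2, the activators Psme1 and Psme3, and Psme3ip1. Both particles shared the direction. In the core, 14 of 14 genes above background were under 0 in DMSO (median -0.12) and 13 of 14 in [BF/S+L/Ep] (-0.19), and in the regulatory particle 17 of 17 (-0.25) and 16 of 17 (-0.17).

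**Figure D3:**
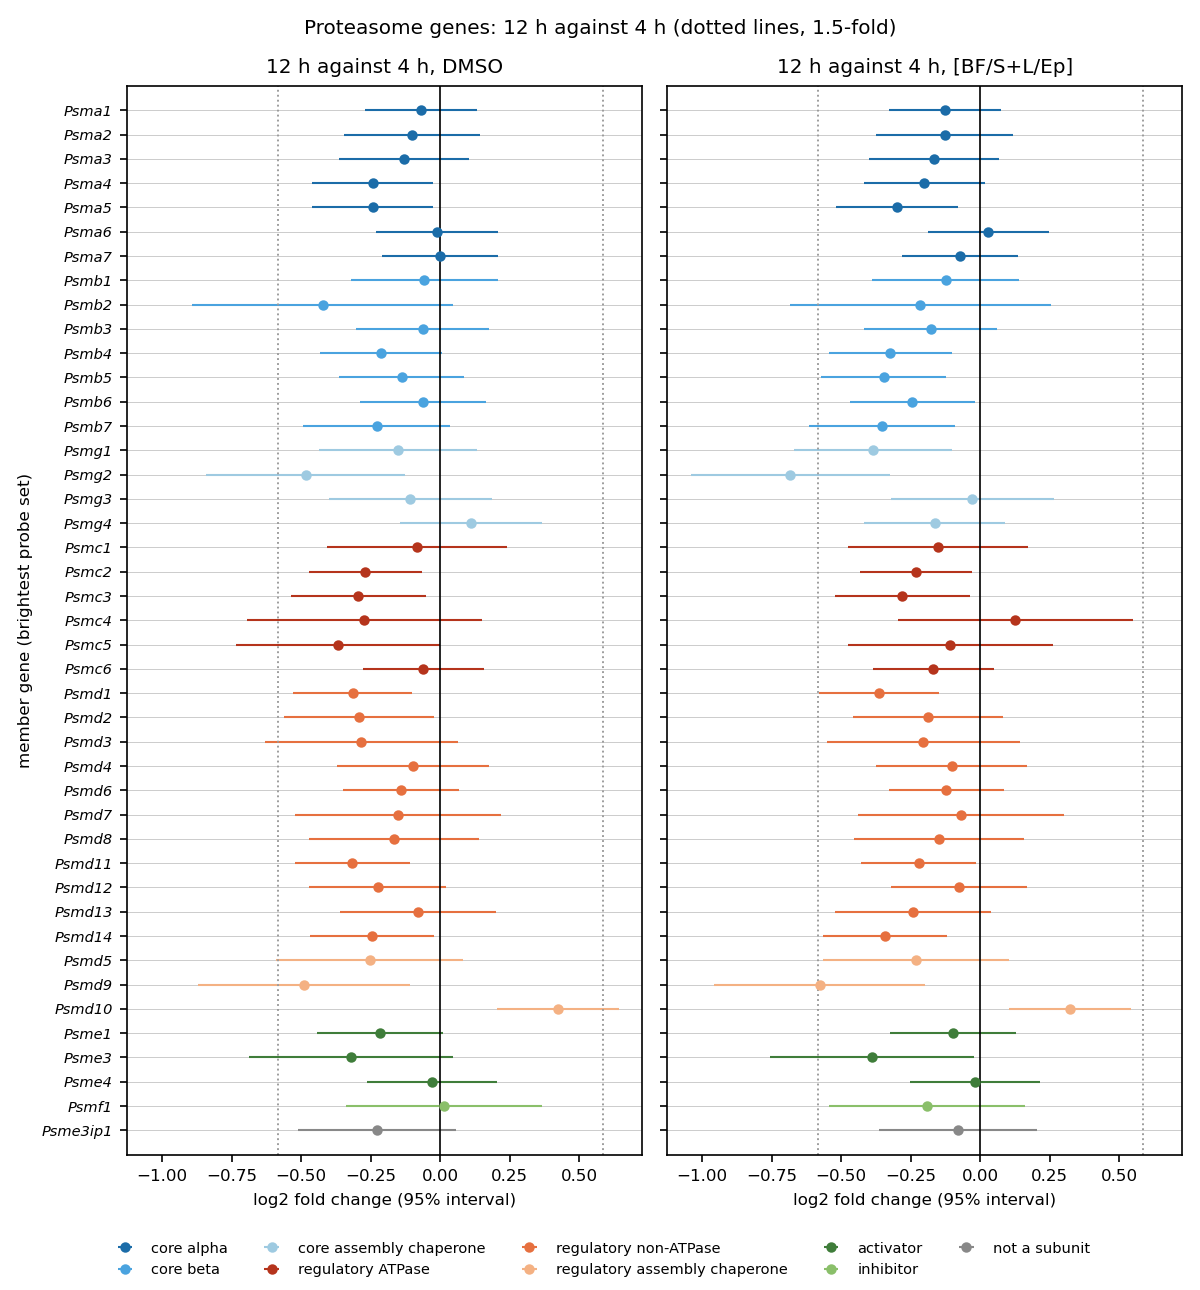
Log2 fold change of 12 h against 4 h in DMSO (left) and [BF/S+L/Ep] (right) for the 43 proteasome genes above background on all 8 arrays, coloured by particle; points are limma estimates from 2 arrays a group, bars 95% intervals and dotted lines 1.5-fold. In each panel 40 of 43 points lie left of 0, Psmd10 lies right of 0 in both, and Psmg2 in [BF/S+L/Ep] is the only gene that passed the adjusted test.

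Without DMSO 12 h replicate 2, the core median over time in DMSO was -0.21 (14 of 14 genes lower). That of the regulatory particle was -0.33 (17 of 17). Without DMSO 12 h replicate 1, 34 of 46 members were lower in DMSO and the median was -0.11, with the core at -0.04 (9 of 14 genes) and the regulatory particle at -0.12 (13 of 17). The shares and medians of all genes given above are with all arrays, and those without this array are not given. The difference was also smaller in the dimmer probe sets of the same genes: of 31 others above background, from 19 genes, 18 were under 0 in DMSO (median -0.02) and 19 in [BF/S+L/Ep] (median -0.11), and with the mean over all probe sets of a gene 30 of 46 and 34 of 46 members were.

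**Figure D4:**
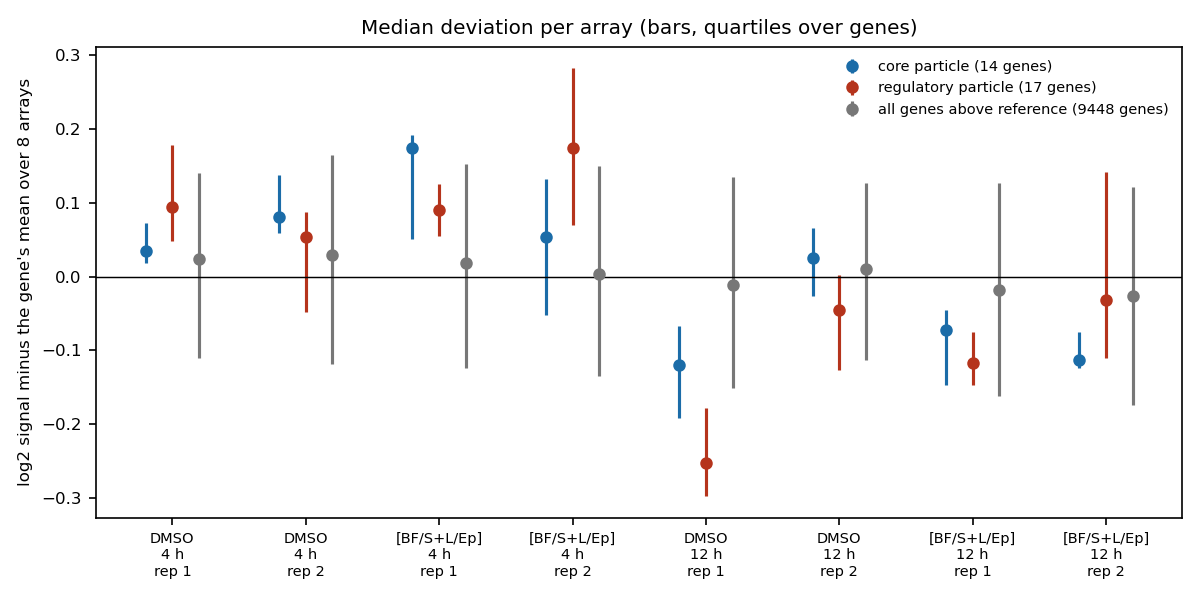
Median deviation of log2 signal from each gene's mean over the 8 arrays (vertical axis) on each array, for 14 core genes, 17 regulatory particle genes and the 9448 genes above background; bars span the quartiles over genes. The core medians lie at 0.03 to 0.17 on the 4 h arrays and at -0.12 to 0.02 on the 12 h arrays, the regulatory particle medians at 0.05 to 0.17 and -0.25 to -0.03, and DMSO 12 h replicate 1 has the lowest median of both.

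Psmg2, a chaperone that pairs with Psmg1 in the first steps of core assembly, was the only member called lower at 12 h in [BF/S+L/Ep]. Its signals were 1257 and 1412 at 4 h, then 744 and 926 at 12 h, in [BF/S+L/Ep], with 1109 and 1196.5, then 705 and 961, in DMSO. All 12 h arrays lay below all 4 h arrays in both treatments. The fall was 1.60-fold in [BF/S+L/Ep] (log2 fold change -0.68 ± 0.17, limma adjusted p = 0.0456), and in DMSO the value was -0.48 ± 0.17 (adjusted p = 0.207), or -0.26 without DMSO 12 h replicate 1 and -0.71 without replicate 2. The difference between the treatments was not called. Its second probe set above background gave -0.29 in [BF/S+L/Ep] and -0.35 in DMSO and was not called. The call was lost, with adjusted p between 0.0655 and 0.334, when either array of DMSO at 4 h, [BF/S+L/Ep] at 4 h or [BF/S+L/Ep] at 12 h was left out.

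Psmd10 ran the other way. By the signals given above, every 12 h array was above every 4 h array of the same treatment, by 0.42 ± 0.10 in DMSO (1.34-fold, limma adjusted p = 0.0525) and by 0.32 ± 0.10 in [BF/S+L/Ep] (1.25-fold, adjusted p = 0.131). It was the only member higher without overlap in both treatments (9.18% of all probe sets were). In DMSO it missed the threshold by little. It was called higher under quantile normalization or with only probe sets above background on at least 4 arrays, and was not called with the replicate number as a block. Its log2 fold change in DMSO was 0.41 without DMSO 12 h replicate 1 and 0.43 without replicate 2. The other chaperones of the regulatory particle did not share its direction. Psmd9 gave 798 and 620.5 at 4 h, then 462 and 544 at 12 h in DMSO, and 787.5 and 676.5 then 462.5 and 517 in [BF/S+L/Ep], with log2 fold changes of -0.49 ± 0.18 and -0.58 ± 0.18 (adjusted p = 0.239 and 0.119). Psmd5 gave -0.25 ± 0.15 and -0.23 ± 0.15.

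In [BF/S+L/Ep], Psmd1 had the smallest p of the regulatory particle subunits and, after Psmg2, of all members. Its signals were 3379 and 3243.5 at 4 h, then 2613 and 2712 at 12 h in DMSO, and 3698 and 3451 then 2762 and 2787 in [BF/S+L/Ep]. The 4 h and 12 h arrays were apart in both treatments, by -0.31 ± 0.10 in DMSO (limma adjusted p = 0.160) and -0.36 ± 0.10 in [BF/S+L/Ep] (adjusted p = 0.0773). Psmd11, a lid subunit whose phosphorylation is known to raise proteasome activity, gave 8855 and 8316 at 4 h, then 6916 and 6867 at 12 h in DMSO (-0.32 ± 0.10, adjusted p = 0.140) and -0.22 ± 0.10 in [BF/S+L/Ep]. Its other probe sets above background differed among themselves in DMSO, at -0.43, -0.18, 0.02 and 0.26. The deubiquitinase Psmd14 gave -0.25 ± 0.10 in DMSO and -0.34 ± 0.10 in [BF/S+L/Ep]. The ATPases Psmc2 and Psmc3 gave -0.27 ± 0.09 and -0.29 ± 0.11 in DMSO and -0.23 ± 0.09 and -0.28 ± 0.11 in [BF/S+L/Ep]. The brightest probe set of Psmc2 carries the suffix for possible cross-hybridization as well, and its next brightest one gave -0.08 ± 0.11 and -0.17 ± 0.11.

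In the core, the catalytic subunit Psmb5 was at -0.14 ± 0.10 in DMSO and -0.35 ± 0.10 in [BF/S+L/Ep] (limma adjusted p = 0.113), with the signals given above: its 12 h arrays lay below its 4 h arrays in both treatments. Psmb7 gave -0.23 ± 0.12 and -0.35 ± 0.12, and Psmb6 -0.06 ± 0.10 and -0.24 ± 0.10. The alpha subunit Psma5 gave -0.24 ± 0.10 and -0.30 ± 0.10, whereas Psma6 was at -0.01 ± 0.10 and 0.03 ± 0.10. Among the activators Psme3 gave -0.32 ± 0.17 and -0.39 ± 0.17, Psme1 -0.22 ± 0.11 and -0.10 ± 0.11, and Psme4 -0.03 ± 0.11 and -0.02 ± 0.11. The inhibitor Psmf1 was at 0.01 ± 0.16 and -0.19 ± 0.16. None of these passed the test.

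Genes around the proteasome were read from other lists of fixed symbols. The 3 immunoproteasome genes had 0 calls in any comparison. Over time Psmb9 gave -0.02 in DMSO and 0.06 in [BF/S+L/Ep], and Psmb10 -0.09 and -0.11. Psmb8 gave 8426 and 8535 at 4 h, then 6655 and 7754 at 12 h in DMSO (-0.24), and -0.31 in [BF/S+L/Ep], and with the extract it was at 0.05 (log2 fold change) at 4 h and -0.01 at 12 h. Of the 8 proteasome-associated genes measured, which include the maturation factor Pomp and the deubiquitinases Usp14 and Uchl5, 0 were called, and their medians over time were -0.11 in DMSO and -0.16 in [BF/S+L/Ep]. The 7 ubiquitin shuttle and unfoldase genes had 0 calls (medians -0.04 and -0.12). Of the ubiquitin and E1 list, Uba6 alone had a probe set with a single symbol, at -0.17 in DMSO and -0.48 in [BF/S+L/Ep] (limma adjusted p = 0.0828).

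Among 6 regulators of proteasome genes, Mafg, a small MAF partner of NRF1 and NRF2, was called higher at 12 h in [BF/S+L/Ep] (0.63, limma adjusted p = 0.0356), with 991 and 968 at 4 h, then 1653 and 1384 at 12 h, and it gave 0.60 in DMSO (adjusted p = 0.0520). Nfe2l2, which encodes NRF2, gave 0.41 in DMSO (adjusted p = 0.0587) and 0.27 in [BF/S+L/Ep], and Nfe2l1, which encodes NRF1, 0.09 and 0.11. With the extract, 0 of the 6 were called at either time. Of 5 interferon-inducible antigen presentation genes, Irf1 was called higher at 12 h in [BF/S+L/Ep] (0.59, adjusted p = 0.0109) and gave 0.46 in DMSO. The 45 genes with symbols of cytosolic ribosomal proteins, another large complex, had 0 calls. Of these, 42 were above background on all arrays, and Rps16 and Rpl3l on 0. The medians of the 45 over time were -0.05 in DMSO and -0.15 in [BF/S+L/Ep]. For the extract against DMSO they were -0.05 at 4 h and -0.15 at 12 h.

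Markers of cell types were called over time as well. Of the 7 macrophage markers, 3 were called higher at 12 h in both treatments, Adgre1 (1.16 in DMSO and 1.26 in [BF/S+L/Ep], log2), C1qa (0.44 and 0.46) and C1qb (0.56 and 0.58), and Mrc1 was called lower in [BF/S+L/Ep] (-0.59). Their summed signal was 61720 to 63478 at 4 h and 66260 to 67204 at 12 h in DMSO, and 56572 to 60706 and 62292 to 65839 in [BF/S+L/Ep], and none was under background. The DC markers summed to 212996 to 216560 and 204205 to 214029 in DMSO, and to 215208 to 232753 and 207090 to 207335 in [BF/S+L/Ep], with Zbtb46 called higher at 12 h in both treatments (0.78 and 0.70) and Batf3 in DMSO (0.70). With the extract, 0 macrophage and 0 DC markers were called at either time. Of the other lists, Pf4 among the platelet markers (0.63) and Cd8a among the T and NK cell markers (1.60, above background on 7 arrays) were called higher in [BF/S+L/Ep] at 12 h. The part of these changes in the lower proteasome signals at 12 h was not tested.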

How the data were processed

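Intensity values are the MAS5 signals the authors deposited, linear, 1 per probe set and array, from 8 Affymetrix mouse whole-genome arrays (RNA input 10 μg by the labels, 7 μg by the methods). No MAS5 version is stated in what was used here. Each array had a trimmed mean of 500 with 2% off each end. Of 45101 probe sets, 64 controls were left out. Symbols came from the platform annotation.

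In limma 3.58.1 (R 4.3.3), 4 group means were fitted to log2 signals, letting the prior variance follow mean signal (4 residual and 8.83 prior degrees of freedom). Tests were two-sided, Benjamini-Hochberg adjusted over 45037 probe sets at a threshold of 0.05. Intervals are 95% and cover the spread between these arrays. Their number limits the precision. The fit was tested on simulated data. Same-numbered replicates were not taken as pairs.

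Named members were those called, the 3 smallest p above background per contrast, the catalytic, activator and inhibitor genes, the smallest p of the average per particle, and members mostly under background. Other genes named without a call complete a particle or a list and were chosen after their values were seen. Members, lists and rules were chosen with earlier results of these data known. Alternatives were other scalings, moderation, filters, probe set choices, a replicate block and leaving out each array. Medians by particle and counts and genes at 12 h without single arrays, and shares of all genes under centring, were added after seeing the data. Figures were drawn with matplotlib 3.10.9.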

Additional observations from a re-analysis of the deposited data

How the results depend on the processing

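The counts of members called at 4 h, at 12 h, in the average and in the difference stayed at 0 under each alternative run. The members' median log2 fold change was above 0 at 4 h and below 0 over time in both treatments under each, whereas at 12 h, where it was -0.01, its sign changed. Each array centred on its median gave 0.0928 at 4 h, 0.0673 at 12 h, -0.23 over time in DMSO and -0.24 in [BF/S+L/Ep], and the mean of all probe sets of a gene gave -0.0821 and -0.13 over time. Leaving out each array in turn gave 0.03 to 0.06 at 4 h, -0.0748 to 0.0751 at 12 h, -0.22 to -0.11 in DMSO and -0.23 to -0.14 in [BF/S+L/Ep]. Of all these medians over alternatives, 11 moved by more than the SD between replicates (0.05) and 61 by less. The 1 call over time in [BF/S+L/Ep] (Psmg2) became 0 with an offset of 50, each array centred on its median, no intensity trend, robust moderation, only the 4 arrays of the contrast, or the mean of all probe sets of a gene, and leaving out single arrays gave counts of 0 to 1. The 0 calls over time in DMSO became 1 (Psmd10) under quantile normalization and with only probe sets above background on at least 4 arrays, and leaving out single arrays gave 0 to 1. With the replicate number as a block, the counts stayed at 0 in DMSO and 1 in [BF/S+L/Ep], and the medians at -0.16 and -0.18. The replicate numbers were not used as pairs, since no label says that a number marks a shared culture. Replicate differences correlated at -0.09 to 0.26 across groups. The highest values were between the 2 treated groups (0.26) and between the 2 groups at 12 h (0.23). The mean of all probe sets of a gene turned the sign of Psmc1 at 4 h (-0.37) and in the average (-1.25), where its second probe set was under background on every array, and of Psmd11 over time in DMSO (0.20). Only the 4 arrays of a contrast could not be run for the average and the difference, which use 8.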
